A study of Mus musculus with 4 samples.

Results

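The potassium channel genes were taken as the autosomal protein-coding genes of the GENCODE M21 annotation (build mm10) whose symbols begin with Kcn followed by a letter. The rule found 92 of the 20807 autosomal protein-coding genes, and it used no measured value. Kcnd1 and Kcne1l also carry such symbols but lie on chromosome X and were left out. The mark measured was H3K27ac, acetylation of lysine 27 on histone H3, by chromatin immunoprecipitation and sequencing (ChIP-seq) of mouse hippocampus layer tissue. There were 4 samples in 1 group, from male B6CASTF1/J mice (by the strain's name, first-generation offspring of C57BL/6 and CAST/Ei parents) aged 2 months, with no treatment or allele in the labels. The tissue of 7 biosamples went into each of 2 pools, C and D. Both pools were sequenced in 2 technical replicates, and fragments measured 200 to 600 bp. Only the pools count as replicates (n = 2), and the design holds no other group.

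Potassium channels let potassium leave the cell and so set the resting potential, end action potentials and space them in time. Most are assembled from pore-forming alpha subunits with cytoplasmic or membrane partners, and hippocampal pyramidal cells are known for A-type, M-type, calcium-activated and G protein-gated potassium currents, while astrocytes clear potassium through inward rectifiers. H3K27ac marks active promoters and enhancers, so its peaks show which of these genes carried the mark in at least some cells of the tissue.

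A gene was called marked when a peak came within 1 kb of any of its annotated transcription start sites (TSSs). Its promoter signal is the highest signal the authors gave to such a peak, and its covered length is the number of bp lying in peaks within 10 kb either side of its main TSS. The replicated list, which joins both pools, held 88930 peaks, the pool C list 94836 and the pool D list 63623. The authors' signal has no stated scale, so signals were set against each other only within a list. No read totals were in the files, so depth is unknown, and a gene without a peak is one where no peak was detected at this depth. Marker genes fixed for the tissue carried promoter peaks for neurons (7 of 7), dentate granule cells (3 of 3), astrocytes (6 of 6) and oligodendrocytes (5 of 5). They did so for 3 of 6 microglial, 4 of 5 endothelial and mural, 2 of 4 choroid plexus and ependymal, and 0 of 3 blood and liver genes. In such mixed tissue, a mark present in fewer cells and a weaker mark in each cell cannot be told apart.

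The promoters with the extreme values are shown first, because the members differed in whether CpG content and the mark went together. Each sequence runs 5′ to 3′ on the gene's strand over the 250 bases before the main TSS and the first 50 from it, 300 bases in all, from the RefSeq GRCm38.p6 genome, and CpG dinucleotides are in capitals. Kcnab2 (chr4:152477822-152478121, minus strand), Kcnj6 (chr16:94997647-94997946, minus strand) and Kcnd2 (chr6:21215253-21215552, plus strand) had the highest promoter signals and 26, 30 and 22 CpGs.
Kcnab2: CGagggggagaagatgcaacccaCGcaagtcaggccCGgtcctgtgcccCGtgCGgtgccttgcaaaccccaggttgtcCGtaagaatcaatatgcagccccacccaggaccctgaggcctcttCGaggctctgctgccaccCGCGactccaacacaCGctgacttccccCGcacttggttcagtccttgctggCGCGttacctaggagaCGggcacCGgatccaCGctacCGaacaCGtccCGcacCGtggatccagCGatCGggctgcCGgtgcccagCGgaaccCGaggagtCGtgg
Kcnj6: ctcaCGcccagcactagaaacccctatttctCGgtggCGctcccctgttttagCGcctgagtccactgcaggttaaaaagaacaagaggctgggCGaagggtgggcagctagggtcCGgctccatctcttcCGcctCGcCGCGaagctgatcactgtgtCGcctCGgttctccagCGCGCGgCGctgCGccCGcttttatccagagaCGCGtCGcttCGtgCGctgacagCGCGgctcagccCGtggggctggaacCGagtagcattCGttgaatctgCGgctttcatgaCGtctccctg
Kcnd2: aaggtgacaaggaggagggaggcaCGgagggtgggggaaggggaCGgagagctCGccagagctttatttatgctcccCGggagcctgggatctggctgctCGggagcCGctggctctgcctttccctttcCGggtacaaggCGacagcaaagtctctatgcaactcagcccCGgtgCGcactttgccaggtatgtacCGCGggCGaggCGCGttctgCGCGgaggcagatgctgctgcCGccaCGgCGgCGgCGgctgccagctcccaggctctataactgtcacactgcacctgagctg

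Kcnf1 (chr12:17176839-17177138, minus strand) and Kcnk4 (chr19:6934466-6934765, minus strand) represent marked genes whose main TSS lay in CpG-poor sequence, with 3 and 5 CpGs.
Kcnf1: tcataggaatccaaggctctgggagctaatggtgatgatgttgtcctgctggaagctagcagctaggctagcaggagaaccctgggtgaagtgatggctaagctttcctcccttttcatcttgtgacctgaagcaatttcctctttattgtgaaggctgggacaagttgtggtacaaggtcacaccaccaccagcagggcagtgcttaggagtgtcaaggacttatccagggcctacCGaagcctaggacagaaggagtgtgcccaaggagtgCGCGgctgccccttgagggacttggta
Kcnk4: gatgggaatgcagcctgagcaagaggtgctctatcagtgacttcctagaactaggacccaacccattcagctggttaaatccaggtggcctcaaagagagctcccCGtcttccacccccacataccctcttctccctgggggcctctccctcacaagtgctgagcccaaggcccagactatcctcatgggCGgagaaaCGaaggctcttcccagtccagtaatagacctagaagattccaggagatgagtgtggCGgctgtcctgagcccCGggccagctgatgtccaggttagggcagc

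Kcns1 (chr2:164171064-164171363, minus strand) and Kcnq1 (chr7:143107004-143107303, plus strand) had 22 and 30 CpGs and no replicated promoter peak, and Kcna10 (chr3:107182806-107183105, plus strand) had neither a CpG nor a peak.
Kcns1: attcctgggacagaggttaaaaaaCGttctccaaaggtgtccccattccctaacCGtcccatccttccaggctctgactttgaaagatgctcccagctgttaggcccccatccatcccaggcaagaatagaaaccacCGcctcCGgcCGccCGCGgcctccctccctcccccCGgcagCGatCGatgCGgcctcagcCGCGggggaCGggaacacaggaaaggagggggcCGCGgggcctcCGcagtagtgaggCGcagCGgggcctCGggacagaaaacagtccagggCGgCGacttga
Kcnq1: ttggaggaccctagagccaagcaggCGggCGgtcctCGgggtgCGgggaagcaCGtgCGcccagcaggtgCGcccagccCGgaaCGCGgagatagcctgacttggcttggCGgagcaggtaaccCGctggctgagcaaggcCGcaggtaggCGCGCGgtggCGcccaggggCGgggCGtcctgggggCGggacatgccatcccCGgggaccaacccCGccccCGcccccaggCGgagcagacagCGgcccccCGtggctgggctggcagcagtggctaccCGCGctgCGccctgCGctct
Kcna10: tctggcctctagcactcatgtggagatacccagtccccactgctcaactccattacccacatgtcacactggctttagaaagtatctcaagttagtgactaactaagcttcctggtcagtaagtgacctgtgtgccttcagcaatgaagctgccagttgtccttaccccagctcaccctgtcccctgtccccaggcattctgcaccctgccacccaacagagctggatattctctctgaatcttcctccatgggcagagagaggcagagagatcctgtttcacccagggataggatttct

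Of the 92 potassium channel genes, 65 (70.7%) carried a replicated promoter peak, beside 63.0% of all autosomal protein-coding genes. In the list called on both pools together the count was 66 (71.7%) beside 63.8%, in pool C 66 (71.7%) beside 63.6%, and in pool D 60 (65.2%) beside 59.2%. The members' share was above that of all genes in each list. The lists draw on the same pools, so they are not independent support for this gap, which was small and was not tested. With only the main TSS counted, the members' share was 58 of 92 (63.0%) beside 60.0%, so the gap was smaller. Among 43 calcium, sodium and HCN channel genes, 34 (79.1%) were marked. Signal at the marked promoters went the other way. Its median was 12.1 over the 65 members (range 3.59 to 33.8) and 13.9 over all marked genes, and the median member stood at percentile 40.9 of all marked genes. Both pools showed the same order, with medians of 14.2 against 16.0 in pool C and 9.42 against 10.3 in pool D.

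Covered length was larger than usual. The median over all 92 members was 2828 bp (mean 3503 ± 3370 bp, SD over genes, n = 92), with quartiles of 220.5 and 5467 bp and 23 members at 0 bp. Over all autosomal genes the median was 1580 bp, and 31.6% of them were at 0 bp. The pool C list gave 2804 bp against 1603 bp. The pool D list alone, without pool C, gave 1667 bp against 1061 bp, so the value without pool C was lower by more than 1.5 times while the members' median stayed above that of all genes. The other channel genes had a median of 3087 bp, so the length was not particular to potassium channels. No test was made of any of these differences, because genes are not replicates and the members were described only.

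The strongest promoter peak of the marked members had a median width of 2707 bp, against 1720 bp over all marked genes. It was 5 kb or wider in 9 of the 65 (13.8%), beside 5.98% of all marked genes and 7 (20.6%) of the other marked channel genes. The widest belonged to Kcnip3 (8121 bp), a calcium-binding partner of the Kcnd channels that is also known as the transcriptional repressor DREAM. Next came Kcnn2 (7565 bp), a small-conductance calcium-activated channel whose wide peak lay at internal starts, then the inward rectifiers Kcnj4 (7144 bp) and Kcnj6 (7012 bp). Kcna3 (6510 bp), Kcnc4 (5840 bp), Kcnab1 (5346 bp) and Kcnip2 (5132 bp) were also among the 9. The Kcna3 peak covered 100% of that gene. These wide-peak genes were picked out after their values were seen.

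The extra length lay mostly downstream of the starts. At the 58 main TSSs with a peak, a median of 2969 bp was covered downstream and 1288 bp upstream, against 1373 and 962 bp over 12476 such genes, and the downstream side was the longer one in 42 of 58 (72.4%) against 65.2%. The other channel genes had nearly the same medians, 2950 bp downstream and 1304 bp upstream, with the downstream side longer in 71.0%. At 1.5 kb downstream of the main TSS, 58.6% of these members lay in a peak, against 32.6% of all such genes and 67.7% of the other channel genes. At 3 kb downstream, the shares were 51.7%, 16.0% and 32.3%. At 2 kb upstream the shares were 20.7%, 11.8% and 12.9%. Directly at the TSS they were 86.2%, 84.1% and 71.0%. The members' curve therefore separates from that of all genes downstream of the start more than at it.

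**Figure D1:**
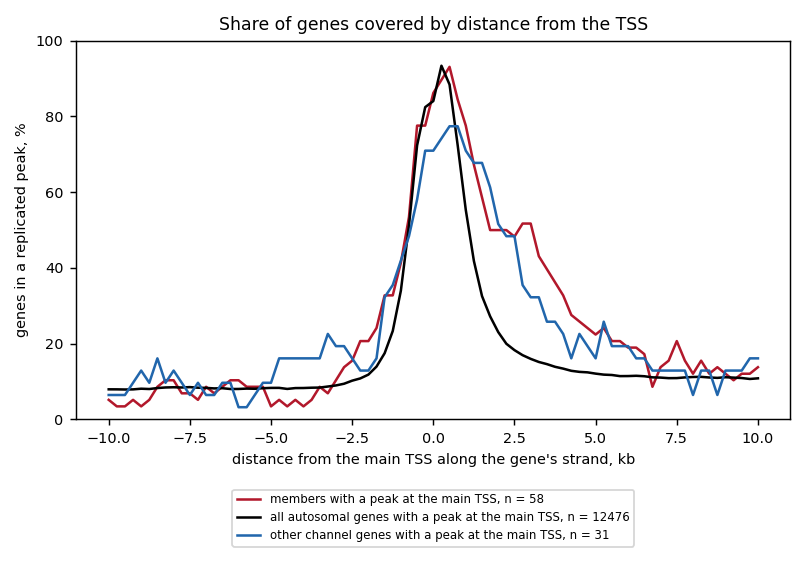
Share of genes (%, vertical axis) lying in a replicated peak at each distance from the main TSS (kb along the gene's strand, horizontal axis) for 58 potassium channel genes (red), 12476 autosomal genes (black) and 31 other channel genes (blue), all with a peak at the main TSS. At 3 kb downstream the red line stands at 51.7% and the black line at 16.0%.

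By subfamily, every Kcnab, Kcnb, Kcnc, Kcnd and Kcnip gene and every Kcnt and Kcnu gene was marked, while none of the 4 Kcne genes was. After Kcne and the single Kcnrg, the share was lowest in the inward rectifiers (Kcnj, 9 of 15, 60.0%). The Kcnm group had the same share (3 of 5), and the Kcna genes had 62.5% (5 of 8). These shares were near the 63.0% of all autosomal genes, which is the share to read every subfamily count against. Subfamilies hold 1 to 15 genes, so a share can shift widely with 1 gene.

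**Figure D2:**
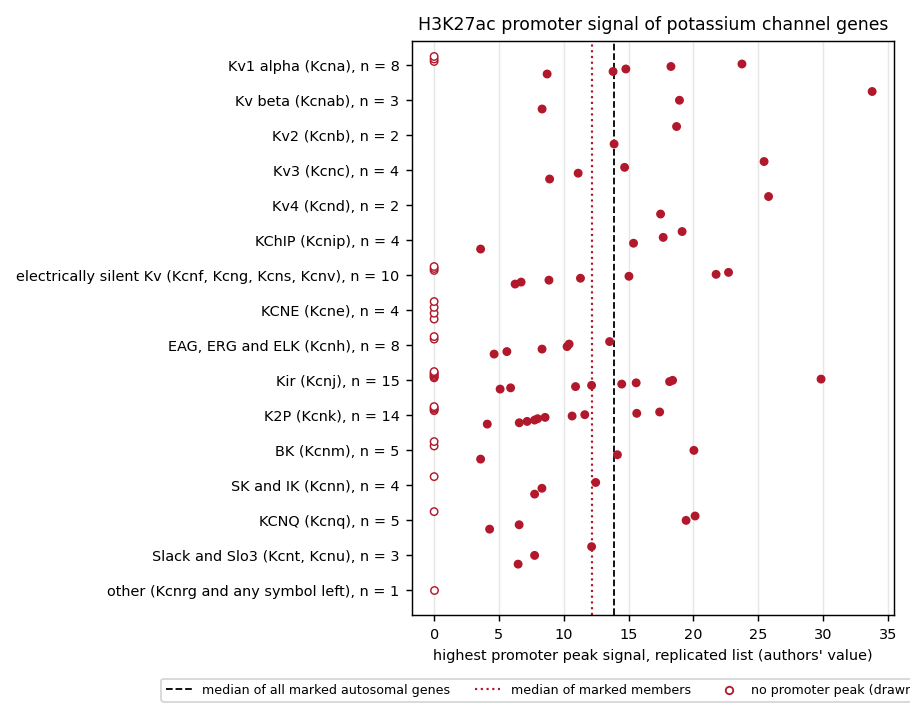
Highest promoter peak signal in the replicated list (the authors' value, horizontal axis) for each of the 92 potassium channel genes, by subfamily, with open circles at 0 for the 27 genes without a promoter peak and lines at the medians of marked members (12.1, dotted) and of all marked genes (13.9, dashed). The points at the far right are Kcnab2 (33.8) and Kcnj6 (29.8), and all 4 Kcne genes are open circles.

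The Kcna genes encode low-threshold voltage-gated pores, many of them axonal. Kcna2 had a promoter signal of 23.7 in the replicated list, 26.1 in pool C and 18.1 in pool D. Kcna1 had 18.3, 23.6 and 12.9, and the A-type subunit Kcna4 had 14.8, 16.6 and 10.7. Kcna3, known from lymphocytes and microglia, followed with 13.8, and Kcna6 was lowest of the marked at 8.71 although it had the most covered bp of the subfamily (7734 bp). The unmarked members were Kcna5, known from atrial muscle, Kcna7, known from muscle, and Kcna10, known from kidney and inner ear. In all 3 lists the same 5 genes were marked, and the median signal of the marked 5 was 14.8 in the replicated list.

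The cytoplasmic beta subunits bind Kcna channels and alter their inactivation. Kcnab2 had the highest promoter signal of all potassium channel genes, 33.8 in the replicated list, 37.3 in pool C and 23.6 in pool D, which placed it at percentile 98.4 of all marked genes. It had 8 promoter peaks, and a start of Nphp4, a cilium gene, also lay within them, though not necessarily in the strongest. Kcnab2 was the only member that shared a promoter peak with another coding gene (1 of 65, 1.54%, against 21.4% of all marked genes). Kcnab1 had 18.9, 20.6 and 12.7 and Kcnab3 8.33, 10.3 and 4.75. Covered length followed the same order, at 12041, 8086 and 4798 bp.

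The delayed rectifier Kcnb2 had signals of 13.9, 16.2 and 10.3 in the replicated, pool C and pool D lists. The electrically silent subunits (Kcnf, Kcng, Kcns, Kcnv) form channels only together with Kcnb subunits, and 7 of 10 were marked. Kcnv1 had 22.7, 24.7 and 14.2, Kcns2 had 21.7, 25.4 and 14.7, and Kcng2 had 15.0, 17.8 and 9.72. In the replicated list these 3 were above the median of all marked genes, though Kcng2 was below it in pool D, and Kcnf1 (11.3), Kcng1 (8.85), Kcng3 (6.71) and Kcns3 (6.25) were below it. Kcng4, Kcns1 and Kcnv2, the last a photoreceptor gene, had no replicated promoter peak. Kcng4 had one in the list called on both pools together.

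The Kcnc genes encode fast, high-threshold channels, and all 4 were marked in both pools. Kcnc1 had 14.7, 16.8 and 11.3, Kcnc4 had 11.1, 11.7 and 7.31, and Kcnc2 had 8.91, 10.7 and 6.71. These 3 kept the same order of signal in both pools.

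The Kcnd channels carry the dendritic A-type current, with Kcnip proteins as calcium-binding partners. Kcnd2 had 25.8, 29.1 and 17.6, the third highest promoter signal of the members, and Kcnd3 had 17.5, 18.1 and 12.2. Of the partners, Kcnip4 had 19.1, 26.5 and 17.3, Kcnip3 had 17.7, 21.1 and 11.9, and Kcnip2 had 15.4, 18.9 and 9.97. Kcnip1 was tied with Kcnmb2 for the lowest signal of any marked member (3.59 in the replicated list), had 4.72 in pool C and had no promoter peak in pool D.

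The Kcnh genes encode the EAG, ERG and ELK channels, and none of them passed the median of all marked genes in the replicated list. In pool D, Kcnh1 was above that list's median of 10.3. Kcnh1, an EAG channel, was highest with 13.5, 14.2 and 10.9, followed by its relative Kcnh5 with 10.4, 11.5 and 7.97 and the ELK channel Kcnh3 with 10.3, 8.42 and 9.39. The ERG channels Kcnh7 and Kcnh2 had 8.32 and 5.61 in the replicated list. Kcnh4, an ELK channel, had 4.63 in the replicated list and 4.92 in pool C, with no promoter peak in pool D. Kcnh6 and Kcnh8 were unmarked in every list. Covered length in the Kcnh genes ran from 0 to 3294 bp with a median of 1851 bp, below the median of all members and above that of all autosomal genes, and 7 of the 8 had a CpG-rich main TSS.

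Within the inward rectifiers, the G protein-gated (GIRK) subunits of neurons led. Kcnj6 had 29.8, 33.2 and 20.8, the second highest promoter signal of the members, Kcnj9 had 18.4, 21.3 and 12.8, and Kcnj3 had 18.2, 20.5 and 14.1. Kcnj5, the GIRK subunit known from the atrium, had no promoter peak in any list. The classical strong rectifiers Kcnj2 and Kcnj4 had 15.6 and 14.5 in the replicated list, and Kcnj12, known from heart, had 5.09 in it and no peak in pool D. The ATP-sensitive pore Kcnj11 had 12.1, 13.5 and 8.81, and Kcnj8, its counterpart in vascular muscle, had none. Kcnj10, the main potassium channel of astrocytes, had a moderate signal of 10.9, 13.8 and 6.71 but a large covered length, 10726 bp, and its partner Kcnj16 had 5.90, 5.30 and 4.82 and 3667 bp. The epithelial members Kcnj1, Kcnj13 and Kcnj15 were unmarked, as was Kcnj14.

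Leak channels of the tandem-pore (K2P) family had a median promoter signal of 8.27 over 10 marked genes of 14. Kcnk1 had 17.4, 17.2 and 12.4 and 9795 bp covered. The mechanosensitive channels Kcnk10, Kcnk2 and Kcnk4 had 15.6, 10.6 and 8.56 in the replicated list, and the halothane-inhibited channels Kcnk12 and Kcnk13 had 11.6 and 7.98. Kcnk13 is known from microglia. The acid-sensitive channels Kcnk3 and Kcnk9 had 7.75 and 7.17, Kcnk6 had 6.57, and the kidney channel Kcnk5 had 4.10 in the replicated list, 5.34 in pool C and no promoter peak in pool D. Kcnk7, Kcnk15, the pancreatic Kcnk16 and the sensory neuron channel Kcnk18 were unmarked.

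Among the calcium-activated channel genes (Kcnm and Kcnn), 6 of 9 were marked. Kcnma1, the pore of the large-conductance (BK) channel, had 20.0, 25.2 and 12.7, and its brain accessory subunit Kcnmb4 had 14.1, 17.6 and 9.11. Kcnmb2 had 3.59, 4.05 and 3.57, near the bottom of both pools, and the smooth muscle subunit Kcnmb1 and Kcnmb3 were unmarked. Of the small-conductance (SK) channels, Kcnn2 had 12.5, 15.2 and 8.96, Kcnn3 had 8.31, 10.1 and 7.02 and Kcnn1 had 7.75, 8.41 and 5.66. Kcnn4, the intermediate-conductance channel of blood cells and microglia, had no promoter peak. The sodium-activated channels Kcnt2 and Kcnt1 had 12.1 and 6.48 in the replicated list, and the sperm channel Kcnu1 had 7.75.

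Of the Kcnq genes, which include the M-type channel subunits, 4 of 5 were marked. The M-type subunit Kcnq3 had 19.4, 21.5 and 14.3, and Kcnq5, another neuronal subunit, was lower, with 6.56, 7.02 and 3.96. The heart and epithelial channel Kcnq1 had a promoter peak in pool C (4.72) and in neither the replicated list nor pool D. The single-span accessory subunits Kcne1, Kcne2, Kcne3 and Kcne4 had none in any list, and Kcnrg, a cytosolic regulator of voltage-gated channels and no channel itself, also had none.

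**Figure D3:**
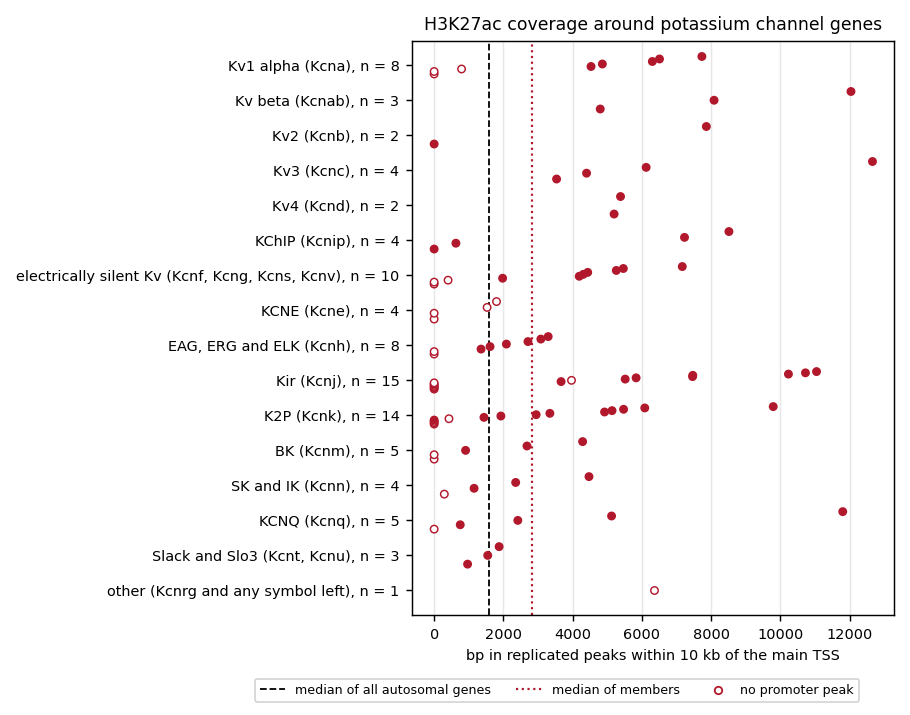
Covered length around the main TSS (bp in replicated peaks within 10 kb either side, horizontal axis) for each of the 92 potassium channel genes by subfamily, with lines at the medians of members (2828 bp, dotted) and of all autosomal genes (1580 bp, dashed). Open circles are genes without a promoter peak. Kcnab2 (12041 bp) and Kcnj9 (11046 bp) are among the points farthest right.

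Members with much covered length included Kcnab2 (12041 bp), Kcnj9 (11046 bp), Kcnj10 (10726 bp), Kcnj4 (10234 bp), Kcnk1 (9795 bp), Kcnip3 (8515 bp) and Kcnab1 (8086 bp). Kcnab2 had 13334 bp in pool C and 7749 bp in pool D, Kcnj9 11309 and 8126 bp, and Kcnj10 10865 and 9121 bp. The main TSSs of Kcnj9 and Kcnj10 lie only 11.9 kb apart on chromosome 1, so their windows overlap and part of the same acetylated stretch counts for both. Between more distant neighbours the mark could differ. Kcna2, with 6303 bp, lies 81.5 kb from the unmarked Kcna10, and Kcna1, with 4859 bp, lies 109.4 kb from the unmarked Kcna5.

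The members were also grouped by the cells or organs they are best known from. These lists were drawn up from general knowledge with earlier results of these data known, so they support nothing by themselves, and the share to read them against is the 63.0% of all autosomal genes. Of 18 channels known in hippocampal principal neurons, 18 were marked in the replicated, pool C and pool D lists alike, with a median signal of 18.5 and a median covered length of 4992 bp. Within that list the lowest signals were at Kcnt1 (6.48), Kcnq5 (6.56) and Kcnh7 (8.32). Of 7 channels known from glia, microglia or vascular cells, 4 (57.1%) were marked, Kcna3, Kcnj10, Kcnk13 and Kcnj16, and Kcnj8, Kcnmb1 and Kcnn4 were not. Of 14 channels known mainly from other organs, 3 (21.4%) were marked in the replicated list, Kcnu1, Kcnj12 and Kcnk5. In pool C that count was 4 and in pool D it was 1. The peaks of Kcnu1, Kcnj12 and Kcnk5 all lay at starts other than the main TSS. Kcnk5 was not marked when only starts of protein-coding transcripts counted.

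Partner proteins of the channels were mostly marked. Of 24 partner proteins, 22 (91.7%) had a promoter peak, beside 63.0% of all autosomal genes. The calmodulin genes Calm3 and Calm2, whose product is the calcium sensor of SK and M-type channels, had signals of 35.2 and 23.9, and Dpp6, an accessory subunit of Kcnd channels, had 20.8. Lgi1, a secreted protein linked to Kcna channels through Adam22 and Adam23, had 23.0. Abcc8, the sulfonylurea receptor that pairs with Kcnj11, had 10.1, while Abcc9, which pairs with Kcnj8, was unmarked as Kcnj8 was. Lrrc52, a partner of Kcnu1, was unmarked although Kcnu1 was not. Of 14 potassium pump and cotransporter genes, 10 (71.4%) were marked, beside the same 63.0% of all autosomal genes. These were too few genes to read that gap as a difference. Among the marked were the sodium pump subunits Atp1b1 (31.0) and Atp1b2 (16.5) and the cotransporter Slc12a2 (20.6). The unmarked 4 were Atp1a4, Slc12a1, Slc12a3 and Slc12a7, the first known from sperm and the next 2 from kidney.

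The pools differed in how many members were called. A promoter peak was found in both pools for 60 members, in pool C alone for 6 (Kcnh4, Kcnip1, Kcnj12, Kcnk5 and Kcnq1 among them), in pool D alone for 0 and in neither for 26. Of the pool C members 90.9% were found in pool D, against 93.0% over all genes, where 930 genes were found in pool C alone and 26 in pool D alone. The 6 members had pool C signals between 4.72 and 6.36, all far below the pool C median of marked members. The pool D list held fewer peaks in all, and whether its depth sets this difference was not tested. Ranks were close: over the 60 members in both pools Spearman's rho of the signals was 0.932 (0.928 over all 12296 genes in both), given as a description across genes that share libraries. The median difference in percentile was 6.81 points, against 6.36. Kcnh3 differed most, at percentile 17.7 in pool C and 42.6 in pool D. Covered length was greater in pool C for 56 of the 60, and for 11723 of the 12296 genes in both pools, so this was general. Kcnj6 (6731 bp in pool C and 6767 bp in pool D) and Kcnq5 (2369 and 2383 bp) were the reverse.

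**Figure D4:**
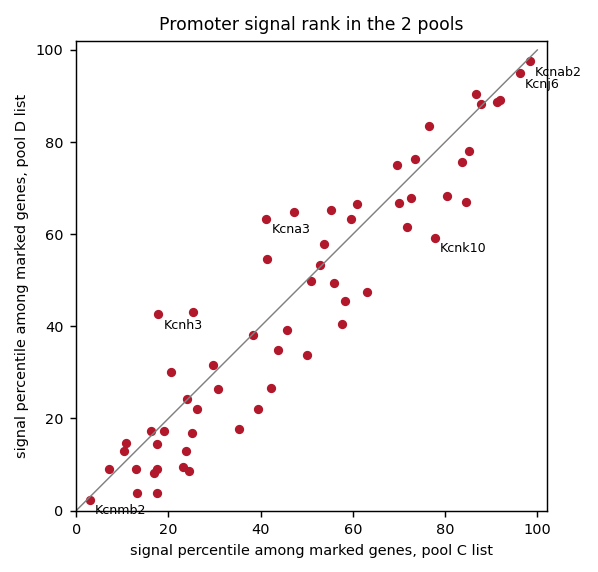
Percentile of the promoter signal among all marked genes in pool C (horizontal axis) and in pool D (vertical axis) for the 60 potassium channel genes marked in both, with the line of equal percentiles. Points lie close to the line (rho 0.932), with Kcnab2 at the upper end, Kcnmb2 at the lower end and Kcnh3 the farthest from the line.

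The 65 marked members were not always marked where their main transcript begins. The members had 332 annotated starts, and 186 lay within 1 kb of a replicated peak. All starts were marked in 31 members and only some in 34. The starts include those of transcripts not annotated as protein-coding, such as retained introns. The counts of starts were not made over all genes, so they describe the members only. In 7 marked members (10.8%, against 4.79% of all marked genes) the main TSS itself had no peak, namely Kcnb2, Kcnd3, Kcng1, Kcnip4, Kcnj12, Kcnk5 and Kcnu1. Kcnip4, on the minus strand of chromosome 5, had its main TSS at 48889557 with 0 bp covered, while its far upstream starts at 49524764 and 49524907 shared a peak with signal 19.1 and 4766 bp covered. Kcnb2, on the plus strand of chromosome 1, had 0 bp at its main TSS (15312452) and a signal of 13.9 with 1954 bp at its upstream start (15287254). In both, the covered length at the main TSS misses the marked promoter. With the most covered start of each gene used in place of the main TSS, the members' median was 3440 bp and that of all genes 1798 bp. In Kcnn2 the internal starts had a signal of 12.5, while the peak at the main TSS had 4.16, with 1154 bp covered. In Kcnk10 the peak at the main TSS had 4.67, and 15.6 belonged to starts farther downstream. Kcnt1 had marked starts in separate clusters, with signals of 3.01 and 6.48, and Kcnu1 was marked only at internal starts near 25911680 on chromosome 8.

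Long genes held many further peaks, which cannot be assigned to the gene they lie in from these lists. The 23 members of 100 kb or more had a median of 15 replicated peaks away from their promoters (range 0 to 60), or 4.67 per 100 kb, against 3.61 per 100 kb over 2372 autosomal genes of that length. The members' quartiles were 0.846 and 8.415 per 100 kb, against 1.019 and 7.901 over all genes of that length, so the spreads overlapped widely. Of the members, Kcnj6 was the densest, with 54 such peaks in 249.1 kb (21.7 per 100 kb) and 30.0% of the gene covered. Kcnma1 had 60 in 725.1 kb, Kcnip4 had 34 in 1135.4 kb, Kcnd3 and Kcnq3 had 33 each and Kcnj3 had 22 in 162.2 kb. At the other end Kcnh8 and Kcnh5 had 0, Kcnip1 had 1, and Kcnh7, at 490.9 kb, had 2. Kcnh5 was marked at its promoter (10.4) and yet held no other peak in 280.1 kb, so a marked promoter did not always come with peaks in the gene.

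**Figure D5:**
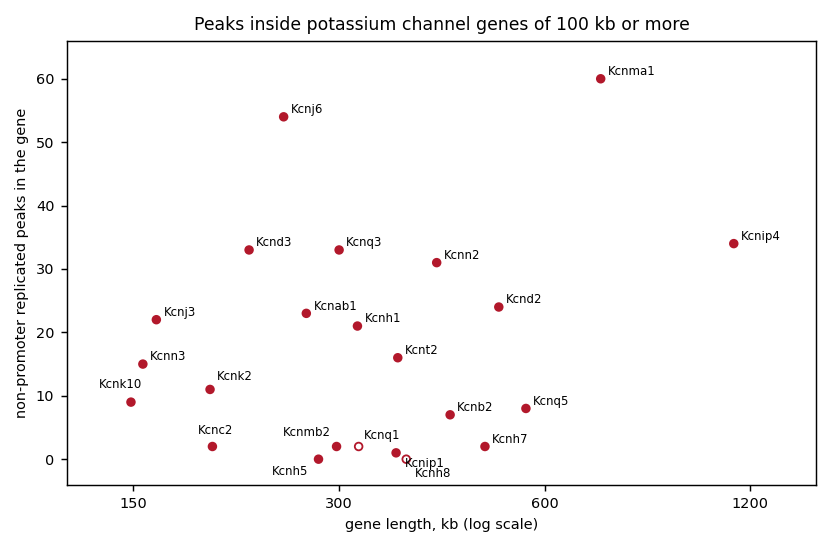
Number of replicated peaks inside each of the 23 potassium channel genes of 100 kb or more, promoter peaks left out (vertical axis), against gene length in kb (log scale, horizontal axis). Filled points are genes with a promoter peak and open points genes without one. Kcnma1 (60 peaks) and Kcnj6 (54 peaks) lie highest, and Kcnh8 and Kcnh5 lie at 0.

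The 27 unmarked members mostly had no replicated peak nearby. The counts that follow were not made over all unmarked genes, so they describe the members only and show nothing particular to them. In 19 no bp was covered within 10 kb of the main TSS, 23 held no replicated peak inside the gene, and in 16 the nearest peak was over 20 kb from every start. Kcnh8, an ELK channel, was farthest at 253.6 kb, followed by the neighbours Kcnj5 (116.6 kb) and Kcnj1 (107.2 kb). Near misses were Kcne4 (1.83 kb) and Kcnrg (1.90 kb), both of which counted as marked when the window was 2.5 kb. Kcnrg had 6341 bp covered, all of it upstream of its TSS. Kcns1 (3.70 kb) and Kcnn4 (3.86 kb) came next.

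CpG content divided the members less sharply than it divided all genes. A promoter was called CpG-rich when observed CpGs reached 0.6 of the number its base composition predicts in the 300-base window. Of 37 CpG-rich members 32 were marked (86.5%, beside 91.3% of all CpG-rich genes), and the unmarked 5 were Kcnh6, Kcnh8, Kcnk15, Kcnq1 and Kcns1. Of 55 CpG-poor members 33 were marked (60.0%, beside 36.7%). The median ratio was 0.51 over the members and 0.57 over all genes, 0.56 against 0.75 at marked genes and 0.26 against 0.19 at unmarked ones. CpG-poor marked promoters were spread over the subfamilies, from Kcnf1 (ratio 0.15, signal 11.3) and Kcnk4 (0.20, 8.56), printed above, to Kcnab1 (0.36, 18.9) and Kcnj9 (0.30, 18.4). With the ratio taken over 500 bases, 38 members were CpG-rich and 34 of them marked, beside 9882 of 10835 over all genes. The difference on the CpG-rich side was therefore smaller than in the 300-base window. Part of the CpG-poor marked group are genes whose peak lies at another start, as at Kcnb2, Kcnd3, Kcng1, Kcnip4, Kcnj12 and Kcnu1. Kcnk5 is such a gene in the CpG-rich marked group. The ratio was taken at the main TSS, while a peak at any start counted as the mark. Marked genes without a peak at the main TSS were 10.8% of members and 4.79% of all marked genes, which affects these shares unequally.

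Short motifs were counted on both strands, as letters only. Within the 300-base windows the SP1 box GGGCGG was in 47 members (51.1%, against 46.2% of all genes), CCAAT in 26 (28.3% against 38.0%) and TATAAA in 5 (5.43% against 12.7%). CAGCTG was in 19 (20.7% against 15.5%), CACGTG in 4 (4.35% against 7.8%) and TGANTCA, with N any base, in 3 (3.26% against 6.71%). TGACGTCA and GCGCATGCG were in 0 members, against 2.48% and 2.25% of all genes. The left part of RE1, the element bound by the repressor REST that is known for silencing neuronal genes outside neurons, was searched as TCAGCACC. It was in 5 members (5.43%, against 1.60% of all genes), among them Kcnh6, Kcnj11, Kcnk3 and Kcns2. Within 1 kb either side of the main TSS it was in 20 of 92 (21.7% against 10.4%), 17 of the 65 marked and 3 of the 27 unmarked. The longer form, TCAGCACC followed after 2 bases by GGACAG, was in 2 of 92 members (2.17%) and in 41 of 20807 genes (0.197%) in that same window. These were Kcnh4, 925 bp downstream of its main TSS (chr11:100759007-100759027, minus strand), and Kcnk12, 600 bp upstream (chr17:87798584-87798604, plus strand). Both stretches lay in replicated peaks. They are printed because these are the only members with the 2 parts, marked by capitals, at exactly that spacing. Other spacings were not searched, and a stretch at Kcnh5 holds both parts farther apart.
Kcnh4: tTCAGCACCctGGACAGccgc
Kcnk12: gTCAGCACCgcGGACAGcgca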

How the data were processed

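H3K27ac ChIP-seq of 4 samples, in 2 pools that serve as the replicates, was analysed. Per the labels, filtered alignments on build mm10 gave 4 narrowPeak lists: 1 replicated, 1 called on the joined pools and 1 for each of pools C and D. Aligner, caller and software versions: not given in the sources used here. Signals were deposited by the authors per peak on a scale that is not stated. The −log10 p and −log10 q values and the summit offset, in bp from the peak start, are also the authors' deposited values. The −log10 q was used only for the stricter setting, and the summit was not used.

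Peaks were intersected with starts of all annotated transcripts of each coding gene in GENCODE M21 (20807 autosomal genes). The main TSS was that of the protein-coding transcript with the best APPRIS rank, then the best support level, then the greatest length. Promoter sequence came from the GRCm38.p6 genome, and no peak ended beyond a chromosome end. Strain differences from the reference were not analysed here. Python 3.11.15, numpy 2.4.6, pandas 2.3.3, pysam 0.24.0 and matplotlib 3.10.9 were used, and the overlap code was tested on simulated data.

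The members and lists were chosen with earlier results of these data known. Named genes were, per subfamily, up to 3 with the highest signal and up to 2 unmarked, the 10 with the most bp, the 4 with the lowest signal, those in 1 pool alone, those in counts of 5 or fewer and those sharing a promoter peak. The rule gave 64 genes, and other members were named after their values were seen, to describe the rest. Values of some genes are not reported here. No test was run, since there is 1 group and genes are not replicates. Alternatives covered peak strength, list, pool, window and starts. Use of the most covered or most upstream start was chosen after seeing the data.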

Additional observations from a re-analysis of the deposited data

How the results depend on the processing

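The count of marked members lay between 58 and 67 in the 10 alternatives, within 1.5 times of the 65 reported. With 92 members no count could rise past that bound, so only a fall could have crossed it. The share over all genes ran from 59.2% to 64.7% in the same settings. Leaving out each pool in turn gave 60 and 66 marked members. The median promoter signal lay between 9.42 and 14.2, and these extremes came from the lists of single pools, whose scale may differ. The median covered length did move: it was 1667 to 2804 bp with 1 pool left out in turn, 4713 bp for windows of 25 kb either side and 1645.5 bp for windows of 2 kb. Over all genes these windows gave 2745 and 1141 bp, so the members' median was the larger in each. The wider and narrower windows differ by construction, and the cause of the lower value without pool C was not tested. Of 160 alternatives for subfamily counts 156 stayed within 1.5 times, and 4 did not, at Kcnb, Kcnd, Kcne and Kcnrg. Signals of named genes moved by more than the SD between the pools in 64 of 452 alternatives and covered length in 156 of 576. No paired analysis was possible because there is 1 group and no comparison between groups. With peaks at or below the list's median signal left out, which removes the weakest by construction, 4 members, Kcnip1, Kcnk5 and Kcnmb2 among them, lost their call. What depth limits is unknown without read totals.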
